A study of Solanum lycopersicum with 8 samples.

Results

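ER1, ER5, ER21 and ER24 are tomato genes whose symbols record that their transcripts were found to respond to ethylene in fruit. They were found by symbol in the platform's probe annotation, which gave 4 of the 802 distinct gene symbols there and 5 probe sets, 2 of them for ER21. All 5 probe sets passed the filter on low signal, among 9493 tested of 10038 that are not controls. RNA came from the peel of Solanum lycopersicum fruit at the mature green stage and was hybridised to Affymetrix Tomato Genome Arrays. The wild type was cv. Ailsa Craig. The mutant lines were homozygous for Anthocyanin fruit (Aft/Aft), homozygous for atroviolacea (atv/atv), or both (Aft/Aft atv/atv). No cultivar is named for the mutants, and each is represented by 1 line, so allele and line background cannot be told apart. Per the labels, wild type and atv fruit had no significant anthocyanin, Aft fruit had a limited amount in spots, and double mutant fruit was strongly pigmented. Plants grew in a heated greenhouse in winter (minimum 12 °C) without treatment, and each genotype has 2 biological replicates on 2 arrays. Ethylene was neither applied nor measured, so the names do not give a direction to look for here.

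Ethylene is the gaseous hormone that starts ripening in tomato. It is made from methionine through ACC by ACC synthases and ACC oxidases and is sensed by the ETR receptors, which together with CTR kinases hold the pathway off until the hormone binds. EIN2 and the EIN3-like factors then switch on ethylene response factors and their targets. ER1 encodes a proteinase inhibitor, a class of protein that plants make against insects and pathogens. ER5 encodes a late embryogenesis abundant (LEA) type protein, a family linked to water deficit. ER21 is an HSC70 (heat shock cognate) chaperone, which folds other proteins, and is listed in the current RefSeq gene table as a synonym of hsc70.3. ER24 is a transcriptional coactivator, with MBF1 as its synonym there, and MBF1 proteins in other plants take part in heat tolerance.

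The arrays of the atv mutant were the least like the wild type. Across probe sets each had a mean correlation of 0.898 or 0.910 with the wild type arrays, where the Aft mutant arrays had 0.962 and 0.965 and those of the double mutant 0.941 and 0.953. Replicates correlated at 0.977 to 0.988. The median deposited intensity ranged from 517.15 to 762.15 over the 8 arrays, which is why they were quantile-normalized first. Levels below are log2 of the normalized intensity, and 4 on this scale is the filter threshold. Of the cuticle and epidermis list, 3 of 14 genes were on the array, and all 3 lay above that threshold on every array. ltpg1 was at 14.02 and 14.07 in the wild type and 14.02 and 13.95 in the atv mutant, while LE16 and TSW12 rose in the atv and double mutants. The summed intensity of the 3 genes was 21019 to 21389 in the wild type, 22143 to 22864 in the Aft mutant, 31787 to 32108 in the atv mutant and 27580 to 27973 in the double mutant. The 2 of 9 vascular genes measured summed to 1542 to 1638 in the wild type, 1353 to 1415 in the Aft mutant, 882 to 935 in the atv mutant and 1465 to 1518 in the double mutant. SUT2 makes up most of that sum. TPRP-F1, the other gene, fell by 1.81 in the Aft mutant, fell by 1.93 in the atv mutant and fell by 1.62 in the double mutant (limma adjusted p = 0.0033, 6e-04 and 0.0041). None of the 7 seed markers had a probe set. Of 7 trichome markers 1 was tested, with summed intensities of at most 16.2 on any array. The part of tissue makeup in the results was not tested, and in bulk peel fewer cells of a type and less RNA per cell cannot be told apart.

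All 4 ER genes changed with atv alone: ER1 fell at least 273-fold, and ER5, ER21 and ER24 rose by 2.11, 2.07 and 4.14 on the log2 scale, in a comparison where 40.3% of all probe sets were called. The double mutant also carries atv, and there, where 13.1% were called, ER1 fell by 0.52, ER21 fell by 1.37, ER5 rose by 1.06 and ER24 was at -0.38 without passing the test. With Aft alone ER5 was the one member called, a rise of 1.54, beside 5.58% of all probe sets.

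ER1 had the widest range of the 4 genes. Its deposited intensity was 6429 and 5634 on the wild type arrays, 4533 and 5592 in the Aft mutant, 4237 and 3237 in the double mutant, and 22.7 and 15.9 in the atv mutant. The 2 atv arrays were thus far below the other 6, which lay close together. On the normalized log2 scale the level was 12.50 ± 0.06 (SD, n = 2) in the wild type and 4.09 ± 0.11 in the atv mutant. The measured difference in the atv mutant was -8.42 (SE 0.10, limma adjusted p = 2.2e-06), but there the signal lay in the background range: the 63 control probe sets for reporter sequences had medians of 1.92 and 2.69 on the 2 atv arrays and 90th percentiles of 4.30 and 4.53, and ER1 read 4.17 and 4.01. With each array's values under that percentile set to it, ER1 was at least 273-fold lower in the atv mutant. That floor is used below where a value is given as a bound or with the control floor, and other values are as measured.

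Among the other genotypes the differences in ER1 were small. In the double mutant ER1 was at 11.98 ± 0.08 and fell by 0.52 against the wild type (SE 0.10, limma adjusted p = 0.030), a 1.43-fold difference. That call ended on the deposited scale (-0.70, adjusted p = 0.19), with median-centred arrays (-0.48, adjusted p = 0.10) and when wild type 1, wild type 2, Aft mutant 1, double mutant 1 or double mutant 2 was left out (adjusted p up to 0.19). The Aft mutant was at 12.29 ± 0.0062, a difference of -0.22 from the wild type that did not pass (adjusted p = 0.38, 95% confidence interval -0.47 to 0.04). The order was wild type, Aft mutant, double mutant, atv mutant, and the first 3 followed each other by 0.22 and 0.30 without overlap of their arrays.

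ER24 moved the opposite way to ER1 in the atv mutant. Its deposited intensity was 441.9 and 365.1 in the wild type, 403.7 and 514.0 in the Aft mutant, 284.7 and 258.2 in the double mutant, and 7234 and 6681 in the atv mutant. Both atv arrays lay above all 6 others. The level went from 8.63 ± 0.14 in the wild type to 12.77 ± 0.0062 in the atv mutant, a rise of 4.14 (SE 0.13, limma adjusted p = 3.1e-05). It ranked 96 among the 4009 probe sets that were higher in the atv mutant. ER24 in the Aft mutant (8.88 ± 0.17) differed by 0.25 from the wild type and did not pass (adjusted p = 0.43, 95% confidence interval -0.08 to 0.57). The double mutant, at 8.25 ± 0.10, gave -0.38 (adjusted p = 0.11, 95% confidence interval -0.70 to -0.05). Its arrays lay below those of the Aft mutant by 0.63 (adjusted p = 0.063), which passed with values floored at 16 (adjusted p = 0.047) and with an intensity trend in the fit (adjusted p = 0.042).

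ER21 was measured by a bright and a dim probe set. The bright one had deposited intensities of 2097 and 1712 in the wild type, 1198 and 1781 in the Aft mutant, 8999 and 6403 in the atv mutant, and 791.2 and 509.6 in the double mutant. The atv arrays were highest and the double mutant arrays lowest, with the other genotypes between. ER21 rose by 2.07 in the atv mutant by this probe set (SE 0.18, limma adjusted p = 6e-04), from 10.83 ± 0.14 to 12.90 ± 0.27, or 4.19-fold. In the double mutant, at 9.47 ± 0.21, it fell by 1.37 (SE 0.18, adjusted p = 0.0083), or 2.58-fold, a call lost without wild type 1 (-1.26, adjusted p = 0.067) or double mutant 2 (-1.21, adjusted p = 0.053). The Aft mutant was at 10.51 ± 0.10 and its difference of -0.32 did not pass (adjusted p = 0.46, 95% confidence interval -0.76 to 0.12). ER21 is thus the member whose atv and double mutant changes, both called, ran in opposite directions from the wild type.

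The dim ER21 probe set, whose name ends in s_at because its probes can match several transcripts, gave the same order of means with more scatter, and its Aft mutant and wild type arrays overlapped on the normalized scale. Its deposited intensities were 61.3 and 68.2 in the wild type, 59.2 and 51.9 in the Aft mutant, 374.2 and 136.7 in the atv mutant, and 18.1 and 29.5 in the double mutant. The 2 atv arrays differed from each other by more than any other pair of replicates of this probe set. It rose by 1.64 in the atv mutant (SE 0.45, limma adjusted p = 0.033), a call lost without wild type 1, wild type 2, atv mutant 1, double mutant 1 or double mutant 2 (adjusted p up to 0.14). The double mutant difference of -1.36 did not pass (adjusted p = 0.10), although its size was that of the bright probe set. That size is limited by background. Double mutant 2 read 4.88, under its control 90th percentile of 5.22, and double mutant 1 read 4.44 beside 4.35. The difference passed without both atv arrays, which stood apart (-1.34, adjusted p = 0.045). Since HSC70 genes form a family of close copies, the share of each copy in either signal is uncertain.

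ER5 was the one member higher in every mutant. It read 300.6 and 275.7 in the wild type, 834.2 and 805.4 in the Aft mutant, 1205 and 1360 in the atv mutant, and 529.3 and 522.9 in the double mutant, as deposited. Every mutant array lay above both wild type arrays. From 8.15 ± 0.04 in the wild type, ER5 rose by 1.54 in the Aft mutant (SE 0.23, limma adjusted p = 0.017), by 2.11 in the atv mutant (SE 0.23, adjusted p = 0.0013) and by 1.06 in the double mutant (SE 0.23, adjusted p = 0.036). These are 2.90-fold, 4.31-fold and 2.08-fold differences. The atv call held in every alternative run. The Aft call was lost without wild type 1, wild type 2 or Aft mutant 1 (adjusted p up to 0.12), and the double mutant call without either array of the wild type or of the double mutant (adjusted p up to 0.18).

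The order for ER5 was wild type, double mutant, Aft mutant, atv mutant. The double mutant, at 9.20 ± 0.23, and the Aft mutant, at 9.68 ± 0.37, were 0.48 apart, less than their summed SD of 0.60, and the test was not passed (adjusted p = 0.25). The Aft and atv mutants, the latter at 10.25 ± 0.26, were 0.57 apart, less than their summed SD of 0.63. The step from wild type to double mutant was larger than the spread. The mean of ER5 in the fruit that carries both alleles lay below that of either single mutant.

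**Figure D1:**
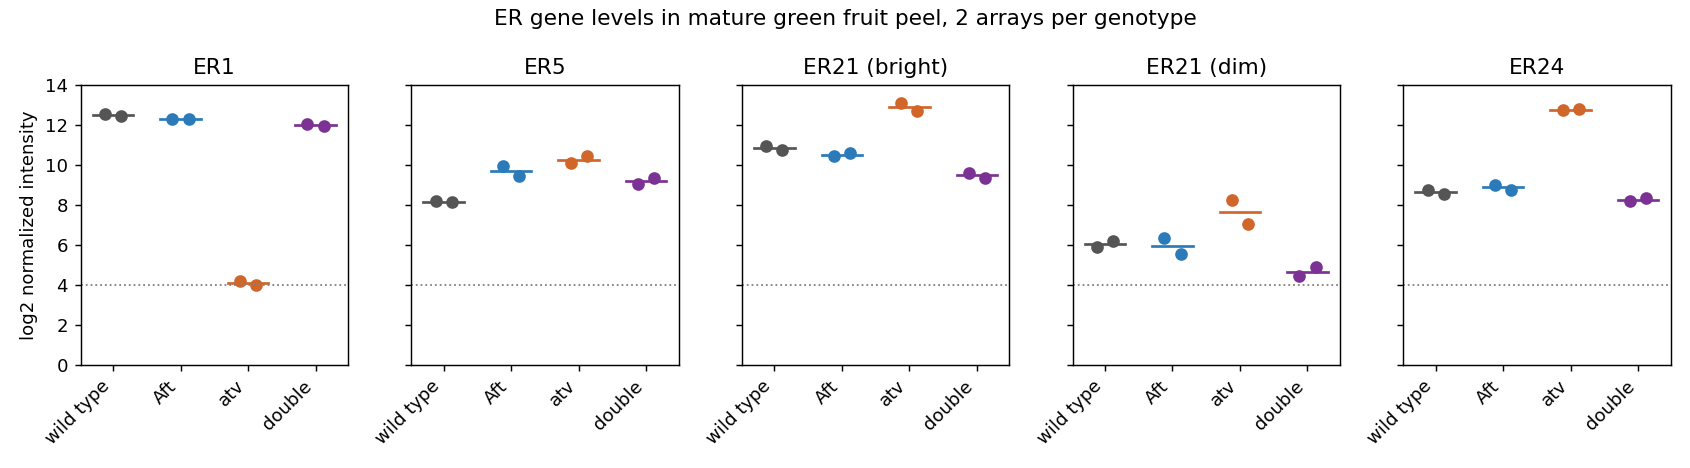
Log2 normalized intensity (vertical axis) of the 5 ER probe sets in each genotype; points are the 2 arrays, bars their mean, and the dotted line is the filter threshold of 4. ER1 in the atv mutant lies at that line, while ER5, ER21 and ER24 are highest in the atv mutant.

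Against all probe sets tested, the members' counts read as follows. In the atv mutant 4 of the 5 probe sets were called higher and 1 lower, where 18.8% of all probe sets were higher and 21.5% lower, so 40.3% changed in all. On the deposited scale 60.9% of the atv calls were higher, against 46.7% here. In the Aft mutant 1 of 5 was higher and none lower, and 2.78% and 2.80% of all probe sets were (5.58% in all). Among the double mutant calls 1 was higher and 2 lower, beside 7.39% and 5.73% (56.3% of calls higher, 39.6% on the deposited scale). The members' median change was -0.08 in the Aft mutant, 2.07 in the atv mutant and -0.52 in the double mutant, and the medians over all probe sets tested were 0.0040, -0.11 and 0.04. These 3 comparisons share the wild type arrays. The atv comparison, the double against the atv mutant and the interaction (both below) rest on the same 2 atv arrays, so they are not separate results.

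**Figure D2:**
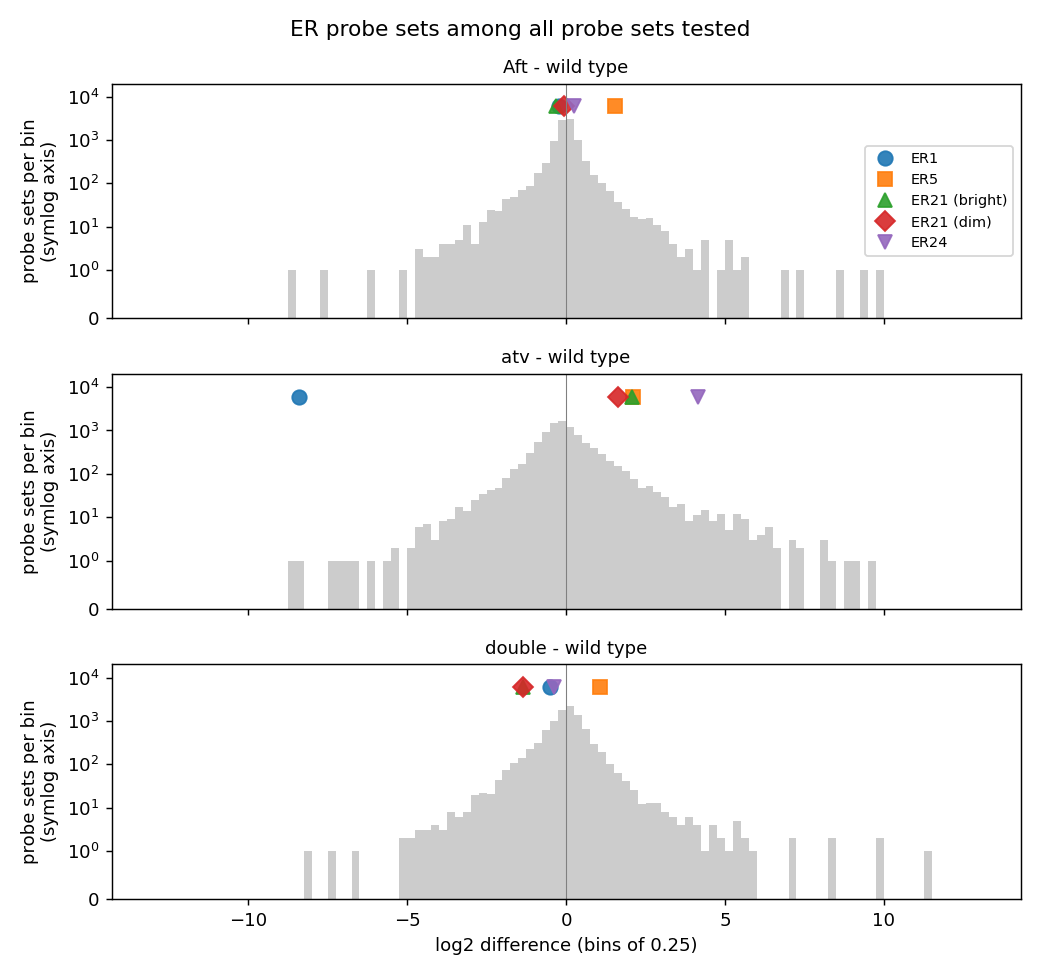
Number of probe sets per bin of log2 difference from the wild type (grey bars, symlog vertical axis), with the 5 ER probe sets marked above. In the atv mutant ER1 is at -8.42 as measured and ER24 at 4.14, whereas in the double mutant all 5 lie between -1.37 and 1.06.

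The double mutant was set against each single mutant to see what 1 allele adds to the other. Against the atv mutant, ER1 was at least 190-fold higher (limma adjusted p = 3.2e-06), a bound because the atv signal lay in the control range. ER24 fell by 4.52 (adjusted p = 2.6e-05), ER21 fell 10.8-fold by its bright and 8.03-fold by its dim probe set (adjusted p = 1e-04 and 0.0039, with 1 of the 2 double mutant arrays in the control range for the dim one), and ER5 fell by 1.05 (adjusted p = 0.014). All 5 probe sets were thus called, 1 higher and 4 lower, against a background of 24.7% higher and 19.3% lower, 44.0% in all (56.2% of calls higher, 31.0% on the deposited scale). The ER5 call was lost without atv mutant 2 (adjusted p = 0.053) or double mutant 1 (adjusted p = 0.070). Against the Aft mutant only the bright ER21 probe set was called: it fell by 1.05 (adjusted p = 0.040), beside 1.58% of all probe sets called lower, 2.52% higher and 4.10% in all. That call was lost as deposited (-1.20, adjusted p = 0.21) and without any one wild type, Aft mutant or double mutant array (adjusted p 0.079 to 0.20). The other probe sets were not called against the Aft mutant. ER24 was at -0.63 (limma adjusted p = 0.063) and ER5 at -0.48 (adjusted p = 0.25). ER1 was at -0.30 and the dim ER21 probe set at -1.28 (adjusted p = 0.16 for both).

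The interaction asks whether atv has the same effect with and without Aft. It was called for all 5 probe sets, 1 positive and 4 negative, where 12.5% of all probe sets were positive and 11.7% negative, 24.2% in all (51.7% of calls positive, 31.1% on the deposited scale). For ER1 the measured interaction was 8.11 (limma adjusted p = 1.4e-05), and with the atv arrays set to the control floor it was at least 7.79. The changes of the 2 single mutants were then added and set against that of the double mutant. For ER24 the sum was 4.39 and the double mutant -0.38, an interaction of -4.77 (SE 0.19, adjusted p = 2e-04). The bright ER21 probe set had a sum of 1.75 and a double mutant change of -1.37, an interaction of -3.11 (SE 0.25, adjusted p = 0.001). ER5 had a sum of 3.65 and a double mutant change of 1.06, an interaction of -2.59 (SE 0.32, adjusted p = 0.004). The dim ER21 probe set was at -2.93 (SE 0.64, adjusted p = 0.025), a call lost without wild type 1, wild type 2, Aft mutant 1, double mutant 1 or double mutant 2 (adjusted p up to 0.086).

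**Figure D3:**
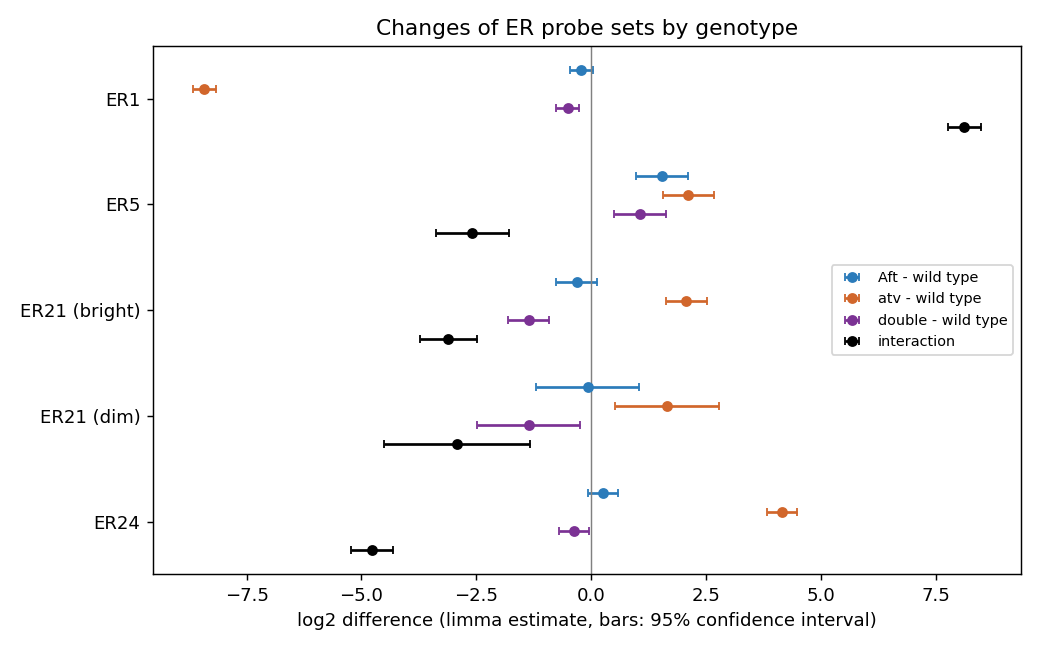
Log2 difference (horizontal axis, limma estimate with 95% confidence interval) of each ER probe set in the 3 mutants against the wild type, and the interaction. The interaction is positive for ER1 (8.11 as measured, at least 7.79 with the control floor) and negative for the other 4 probe sets (-4.77 to -2.59).

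The array also holds other genes named as ER cDNAs. Of 8 such symbols 6 were present, namely ER43, ER49, ER66, ER68, ER69 and CTR1, which is ER50 by synonym. ER66 encodes a calmodulin-binding transcription factor, ER69 a methionine synthase, and CTR1 the kinase that represses ethylene responses. In the atv mutant 21.5% of all probe sets were called lower and 40.3% in either direction. There CTR1 fell by 1.19 (SE 0.15, limma adjusted p = 0.002) and the other 5 did not pass. Their values ran from -0.30 for ER49 (adjusted p = 0.23) to 0.13 for ER68 (adjusted p = 0.40). None of the 6 passed in the Aft mutant (-0.05 to 0.29) or in the double mutant (-0.26 to 0.37), beside 5.58% and 13.1% of all probe sets called. In the double mutant ER43 and ER69 passed with the intensity trend (adjusted p = 0.048 for both), and ER43 with only the arrays compared (adjusted p = 0.046). Between the double and atv mutants 4 of the 6 were called higher (CTR1, ER43, ER49 and ER66), where 24.7% of all probe sets were. On the deposited scale CTR1 kept that call (0.92, limma adjusted p = 0.012). ER43, ER49 and ER66 lost it there (0.36, 0.43 and 0.41, adjusted p = 0.2, 0.12 and 0.17). The median over the 6 was -0.19 in the atv mutant, where the median over all probe sets was -0.11.

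Relatives of each member by function were counted next. Besides ER1, 3 of 14 listed proteinase inhibitor genes were measured. PIIF (LOC543954), a wound-induced inhibitor, rose by 4.84 in the atv mutant (SE 0.27, limma adjusted p = 0.00014), where ER1 fell at least 273-fold. PIIF stood at 5.33 in the wild type, 8.02 in the Aft mutant, 10.16 in the atv mutant and 7.43 in the double mutant, so it rose in the Aft and double mutants too, by 2.69 and 2.11. The double mutant call was lost without wild type 2 or double mutant 2 (adjusted p up to 0.057). ARPI, an auxin-regulated inhibitor, fell by 1.11 in the atv mutant (adjusted p = 0.0087; 0.062 at most, over the alternatives) and fell by 1.02 in the Aft mutant (adjusted p = 0.049, lost in 13 of 16 alternatives). CEVI57 rose by 0.66 in the atv mutant (adjusted p = 0.041, lost in 9 of 15) but fell by 3.95 in the Aft mutant and fell by 4.51 in the double mutant. The list median in the atv mutant was 0.66.

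Of the 14 drought and LEA list genes set beside ER5, 4 were measured and all 4 rose in the atv mutant (median 1.89), where 18.8% of all probe sets were called higher. The lipid transfer protein genes TSW12 and LE16 rose 3.74-fold and 3.66-fold, and the dehydrin TAS14 rose by 0.81. CBF1, a cold-response factor, rose by 5.50 (SE 1.35, limma adjusted p = 0.023), a call lost without either wild type or either atv array (adjusted p up to 0.097). LEA14, also an LEA gene but not in that list, rose by 0.37 in the atv mutant (adjusted p = 0.022) and was at -0.23 in the double mutant (adjusted p = 0.14). TSW12 and LE16 are also in the epidermis list above and account for the rise of its sum, since ltpg1 was at -0.06 in the atv mutant (adjusted p = 0.64). In the double mutant LE16 and TSW12 rose by 1.16 and 0.96, lower than in the atv mutant by 0.71 and 0.94 (both called), as ER5 was. The LE16 call in the double mutant was lost as deposited (adjusted p = 0.067), and that of TSW12 there and without either wild type or double mutant array (adjusted p up to 0.12). Unlike ER5, which rose by 1.54 in the Aft mutant, none of the 4 was called higher there, beside 2.78% of all probe sets. Their median there was -0.64 as measured (-0.37 with the control floor), and TAS14 fell by 1.30 (limma adjusted p = 0.0038). Between the double and Aft mutants 3 of the 4 were called higher (median 1.10), beside 2.52% of all probe sets. ER5 was at -0.48 in that comparison and was not called.

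Of 27 chaperone and heat stress symbols other than those of the members, 5 were measured, all small heat shock proteins. All 5 rose in the atv mutant, where 18.8% of all probe sets were called higher. None passed in the Aft or double mutant, where 5.58% and 13.1% were called in either direction. HSP17.4, ER-SHSP and vis1 had wild type means of 3.38, 3.92 and 4.18. These lay under the control 90th percentiles of the wild type arrays (4.57 and 4.62), so a fall of these genes could not be seen. Against the control floor HSP17.4 rose at least 242-fold in the atv mutant (limma adjusted p = 0.00025). ER-SHSP rose at least 82.1-fold (adjusted p = 0.0040) and vis1 at least 55.6-fold (adjusted p = 4.3e-05). MTSHP rose by 5.84. Among the members, ER24 was called at 4.14 and ER21 at 2.07 in the same comparison. All 5 were also called lower in the double mutant than in the atv mutant, where 19.3% of all probe sets were. That comparison rests on the same 2 atv arrays as the rise, so it is not a separate result. A further small heat shock gene, HSP17-6, was missed by the list because of its spelling: it rose by 2.72 in the atv mutant (adjusted p = 3e-05) and fell by 0.36 in the double mutant (adjusted p = 0.046).

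**Figure D4:**
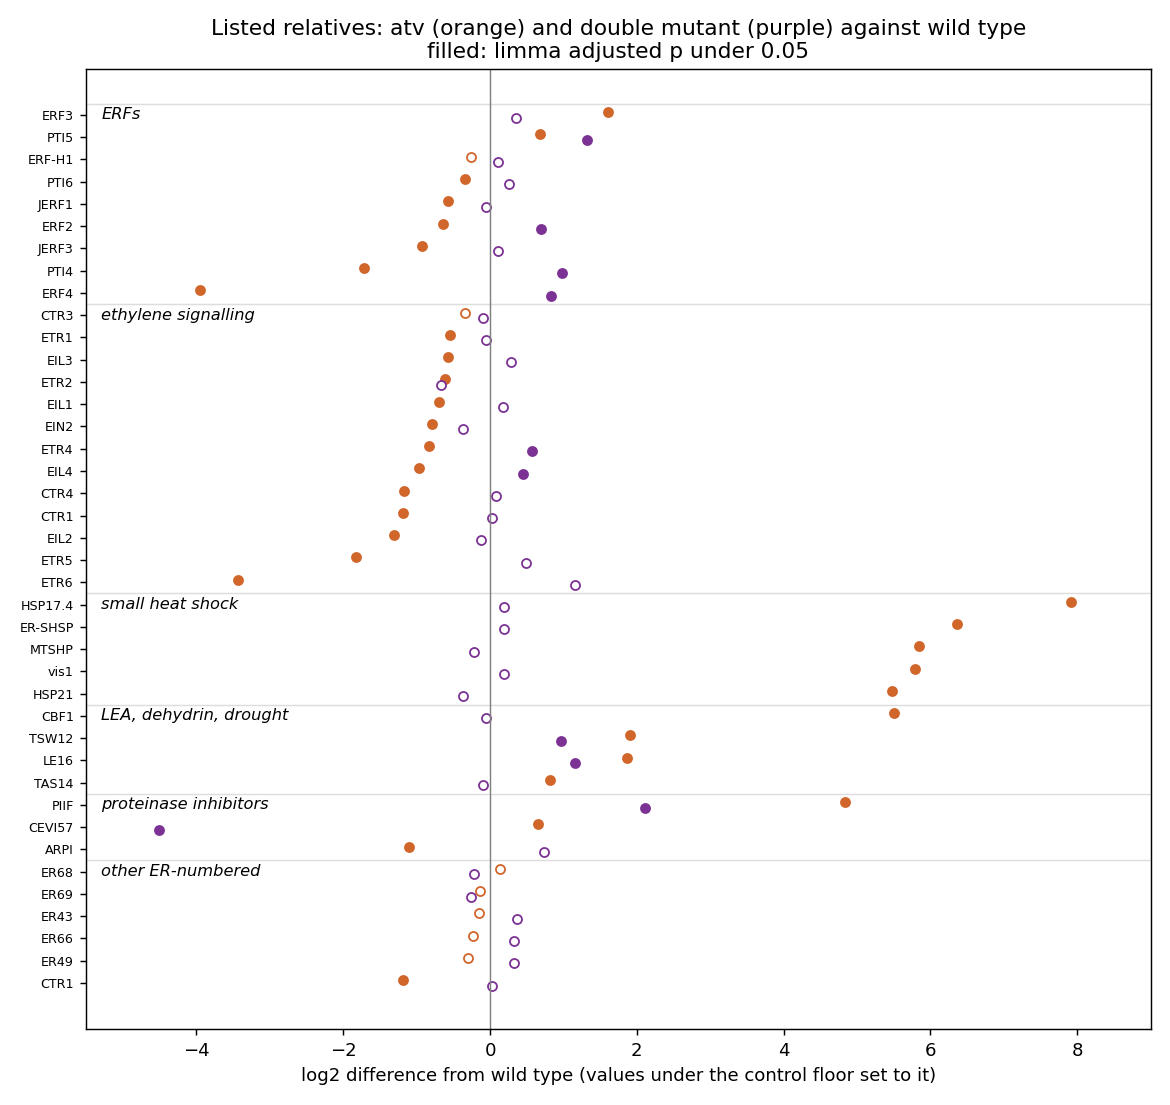
Log2 difference from the wild type (horizontal axis, values under the control floor set to it) for listed genes in the atv mutant (orange) and double mutant (purple); filled points have limma adjusted p under 0.05 in the fit without the floor. The small heat shock genes reach 5.48 to 7.92 in the atv mutant and none of those plotted is called in the double mutant.

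The ethylene pathway itself was followed from synthesis to targets. Of the 12 synthesis genes tested, 5 rose and 2 fell in the atv mutant (median 0.41, or 0.0080 with the control floor), where 18.8% and 21.5% of all probe sets did. The ACC oxidase ACO5 was at least 11.2-fold lower, since its atv arrays lay in the control range, and the ACC synthase ACS4 fell by 2.04. ACS3 lay in that range in the wild type and was at least 2.25-fold higher, and without wild type 1, wild type 2 or atv mutant 2 its unfloored call ended (adjusted p up to 0.081). In the Aft mutant none rose and 2 fell, ACO6 by 3.57 and ACO4 by 2.42, beside 2.80% of all probe sets called lower. In the double mutant 2 of the 12 rose and 2 fell, beside 7.39% and 5.73% of all probe sets. Among them ACO6 was at -2.61, ACO5 at 1.53 and ACS1A at -1.11 (limma adjusted p = 0.021, a call lost in 5 of 16 alternatives).

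Perception and signalling genes moved in the atv mutant, where 12 of 13 fell and none rose (median -0.83), beside 21.5% and 18.8% of all probe sets. CTR1 is counted in this list, among the ER cDNAs above and among the fruit genes below, so these counts share its fall. ETR6 fell by 3.44, the receptor ETR5 fell by 1.82 and the EIN3-like factor EIL2 fell by 1.31. None of the 13 was called in the Aft mutant (median -0.0023), near the share of 5.58% over all probe sets. The double mutant had 2 of the 13 called higher and none lower, beside 7.39% and 5.73% of all probe sets. In the double mutant ETR4 and EIL4 rose by 0.57 and 0.45, calls lost in 8 and 10 of 16 alternatives, among them the deposited scale, the replicate block and each wild type or double mutant array left out (adjusted p up to 0.24 and 0.44). For EIL4 these also held each Aft mutant array. Of 9 ethylene response factors, 6 fell and 2 rose in the atv mutant, against the same shares: ERF4 fell by 3.95, PTI4 fell by 1.71 and ERF3 rose by 1.61 (a dimmer ERF3 probe set, near background, did not pass). Of the 9, 1 was called higher in the Aft mutant and 4 in the double mutant, beside 2.78% and 7.39% of all probe sets. None was called lower in either. PTI5 rose by 1.63 in the Aft mutant (adjusted p = 0.011) and by 1.33 in the double mutant, where PTI4 and ERF4 rose by 0.98 and 0.83. Each of the calls just named was lost without wild type 1 or wild type 2, and also without 1 or more arrays of the mutant concerned. Those in the double mutant were also lost as deposited.

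Among 17 ethylene-regulated fruit genes tested, which include the other ER genes, 3 rose and 7 fell in the atv mutant (median -0.23), where 18.8% and 21.5% of all probe sets did, so the count that rose is near the background. The ripening regulator RIN was at least 18.6-fold lower against the control floor. TBG4, a galactosidase gene, fell by 2.64 and LOXB, a lipoxygenase gene, by 1.56. In the Aft mutant 1 rose and 4 fell, beside 2.78% and 2.80% of all probe sets, with RIN at -3.49, LOXB at -2.48 and the phytoene synthase gene Psy1 at -0.67 (adjusted p = 0.023, lost in 8 of 16 alternatives). In the double mutant 1 rose and 5 fell, beside 7.39% and 5.73%, with LOXB at -4.06, RIN at -2.27 (adjusted p = 0.012, lost without wild type 1, wild type 2 or double mutant 1) and the pectinesterase PE1 at -1.30.

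Likeness to each member was measured by Pearson's r over the 8 arrays among 847 or 848 other probe sets with a gene symbol. These values are descriptions, and since the atv arrays stand apart they set much of r, so r over the 6 other arrays is given beside it. The gene most like ER1 was NP24-I, an osmotin-like defence protein (r = 0.9998, and 0.98 without the atv arrays), which fell by 8.75 in the atv mutant, where 1 of its 2 arrays lay in the control range. ME2 and EIL2 followed (0.998 for both, then 0.90 and 0.87). ER24 was most like 3 small heat shock genes, HSP17-6, MTSHP and vis1 (0.998, 0.997 and 0.995, then 0.91, 0.88 and 0.82).

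ER5 was most like DREB1 (0.967, then 0.94), the mitogen-activated kinase gene MPK3 (0.957, then 0.96) and the pathogenesis-related gene PR1b1 (0.951, then 0.93). All 3 were called higher in the Aft and atv mutants, where 2.78% and 18.8% of all probe sets were. DREB1 rose by 1.10 and 1.61, MPK3 by 0.65 and 0.94, and PR1b1 by 1.64 and 3.24. In the double mutant they were at 0.66, 0.60 and 1.69 (limma adjusted p = 0.069, 0.021 and 0.0034). Unlike ER5, PR1b1 was thus not lower there than in the Aft mutant. The 3 were picked by r with ER5 over these arrays, so rising where ER5 rose is not a separate result. The bright ER21 probe set was most like ACS1A (0.984, then 0.98), LOC543655 (0.978, then 0.89) and LEA14 (0.976, then 0.89). The dim one was most like sumo, LEA14 and ACS1A (0.967, 0.959 and 0.954). ACS1A, an ACC synthase gene, had the same order as ER21, with a rise of 1.04 in the atv mutant (limma adjusted p = 0.0097). ACS1A and the genes most like ER1 and ER24 were also picked by r over these arrays. Sharing the order or change of a member is thus not a separate result for them either.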

How the data were processed

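Total RNA from fruit peel was labelled with biotin and hybridised to 8 arrays, 2 per genotype, per the labels. The authors deposited 1 intensity per probe set and array on a linear scale. GCRMA is listed, with no version, in the submitters' processing notes, and no source used here states what the intensities are relative to. Since medians and quartiles differed between arrays, quantile normalization was applied, followed by a floor of 1 and log2. Of 10209 probe sets, 171 controls were left out. Probe sets with log2 of at least 4 in at least 2 arrays were tested (9493, with 545 failing). In R 4.3.3, limma 3.58.1 estimated a mean per genotype from the 8 arrays together (4 residual and 1.77 prior degrees of freedom). Tests were two-sided, adjusted by Benjamini and Hochberg over all probe sets tested, at 0.05. A fold given as at least is a bound, with each array's values under the 90th percentile of its reporter controls set to that percentile. This floor was chosen after seeing the data. SD is over 2 replicates, SE is from limma, and the number of arrays limits the precision. The fit was tested on simulated data. Alternatives were the deposited scale, median centring, a floor of 16, no filter, an intensity trend, a replicate block, fewer groups and each array left out. Symbols came from the platform annotation (909 probe sets), of which 885 matched a current gene table by identifier. A list counts 1 probe set per gene, the brightest, without the members, and none of 3 other coactivators listed had a probe set. Named genes are the members, the 3 probe sets most like each, and up to 3 called genes of each list with the largest change in each mutant. HSP17-6, LEA14 and the tissue markers were named after their values were seen. The members and lists were chosen with earlier results of these data known.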

Additional observations from a re-analysis of the deposited data

Results flagged for a closer look

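The difference between lines with and without atv was not the same without and with Aft for the 5 ER probe sets, by the interaction term of the limma fit, although line background cannot be told apart from the alleles. On the log2 scale the term was 8.11 as measured for ER1 (at least 7.79 with the control floor), -4.77 for ER24, -2.59 for ER5, and -3.11 and -2.93 for the bright and dim probe sets of ER21. The dim one lost the call in 5 of 14 alternatives (adjusted p up to 0.086). With atv alone ER1 was measured at -8.42, with the atv signal in the background range. With atv added to Aft it was at -0.30 and did not pass (adjusted p = 0.16). ER24 rose by 4.14 with atv alone and was at -0.63 with atv added to Aft (adjusted p = 0.063). The share of all probe sets called for this term was 24.2%. Groups of 2 arrays allow no test for a single outlying sample.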

How the results depend on the processing

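Of 460 values of the 30 member results under alternatives, 412 kept their direction and side of the threshold, 40 lost the call, 6 gained it and 2 changed sign. The interaction of ER1, ER5, ER24 and the bright ER21 probe set, and their atv differences from the wild type, kept the call in all alternatives run. The cause of the changes below was not tested. As deposited, ER1 in the double mutant (-0.70) and bright ER21 between double and Aft mutants (-1.20) were not called, nor was ER1 with median-centred arrays (-0.48). Bright ER21 (-1.05) was also not called there without the filter or with only the arrays compared. With only the arrays compared, ER5 in the Aft mutant (1.54, adjusted p = 0.053) and dim ER21 in the atv mutant (1.64, adjusted p = 0.065) lost the call, and dim ER21 in the double mutant (-1.36) gained it, as it did without both atv arrays (-1.34). ER24 between double and Aft mutants (-0.63) passed with the floor of 16 and with the trend. With a replicate block, ER5 in the double mutant (1.06, adjusted p = 0.056) was not called, and no other member's call changed. The labels do not say whether same-numbered replicates shared more than a number. Their deviations correlated at -0.04 to 0.18.

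Leaving out 1 array at a time, ER5 ranged from 1.26 to 1.80 in the Aft mutant, from 0.90 to 1.21 in the double mutant and from -1.25 to -0.87 between double and atv mutants. ER1 in the double mutant ranged from -0.58 to -0.46. Bright ER21 ranged from -1.51 to -1.21 in the double mutant and from -1.19 to -0.89 against the Aft mutant. Dim ER21 ranged from -0.45 to 0.30 in the Aft mutant, where its sign turned without wild type 2 (0.08) and without Aft mutant 2 (0.30) and no value was called, from 1.05 to 2.25 in the atv mutant, from -1.63 to -1.14 in the double mutant and from -3.53 to -2.32 for the interaction.

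Counts of called probe sets moved more. For Aft against wild type (530 as reported) they were 290 as deposited and 205 to 552 with 1 array out. For atv against wild type (3829) they were 1987 and 2112 to 3832. For double against wild type (1246) they were 442 as deposited, 1984 with the trend, 2187 with only the arrays compared, 2153 without both atv arrays and 350 to 2146 with 1 out. For double against Aft (389) they were 76, 584 with the floor, 698, 134, 830 and 73 to 826. For double against atv (4178) they were 2252 as deposited and 2541 to 4229, and for the interaction (2293) 872 and 1160 to 2587. The deposited scale moved the median change of all probe sets by -0.17 for double against wild type, -0.11 against Aft, -0.23 against atv and -0.16 for the interaction.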
